A study of Rhododendron with 15 samples.

Results

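The step from 35 °C to 40 °C was followed in leaves of the Rhododendron variety 'xiaotaohong' that had received no melatonin. It compared the 3 libraries from leaves at 40 °C with the 3 from leaves at 35 °C, which makes 6 of the 15 labelled libraries, over every gene in the deposited table. The other 9 libraries came from leaves of the same variety at 25 °C without melatonin (the submitters' control) and at 35 °C and 40 °C with melatonin applied, each with 3 libraries. Melatonin is an indoleamine derived from tryptophan that plants make themselves and that is given to them in studies of stress. The labels state no plant age, length of exposure, hour of sampling or melatonin dose, nor whether the libraries of a group came from separate plants. The p-values therefore measure the spread between these libraries, which may be technical.

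Heat unfolds proteins. Plant cells answer it through heat stress transcription factors, which switch on genes for molecular chaperones, proteins that hold or refold damaged ones. Small heat shock proteins bind unfolding proteins, HSP70 refolds them with the help of DnaJ co-chaperones, HSP90 completes the folding of signalling proteins, and ClpB pulls apart aggregates. In leaves the heat-sensitive sites include Rubisco activase, the enzyme that keeps the carbon-fixing enzyme Rubisco working, and photosystem II, which splits water. Severe heat is also known to lower the transcripts of photosynthesis and growth.

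Levels are given as FPKM, the authors' fragments scaled by gene length and library size, and each value is that of 1 library unless called a mean. Changes are log2 fold changes of 40 °C over 35 °C with their standard error (SE), fitted to the counts with edgeR's quasi-likelihood test across all 15 libraries. A gene was called changed at an adjusted p below 0.05 (Benjamini-Hochberg over the 26183 genes tested). The 6 libraries held between 59362192 and 68267949 counts. Scaling factors were 0.999 to 1.01 at 35 °C and 0.909 to 0.919 at 40 °C, so the fitted changes lie slightly above the plain FPKM ratios. The leaf label was met in all 6 libraries: light-harvesting genes of the mesophyll summed to 14280 FPKM or more in each 35 °C library and to 2111 or more in each 40 °C library, against 57.2 to 79.2 FPKM for the whole root marker list.

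The step changed most of the measured transcriptome. Of the genes tested, 32.8% were called higher and 36.5% lower at 40 °C, 69.3% in all. With a change of at least 2-fold required as well, 18.7% rose and 21.8% fell. In the gene lists that follow, counts of genes called have 32.8% and 36.5% as their background. Counts of genes changed at least 2-fold have 18.7% and 21.8%. Over all genes the median change was -0.07 on the log2 scale. Large changes were common: 2464 genes rose and 3150 fell at least 4-fold, and 1231 rose and 1379 fell at least 16-fold. In 31.0% of genes all 3 libraries at 40 °C lay above all 3 at 35 °C in FPKM, and in 42.0% all lay below.

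**Figure D1:**
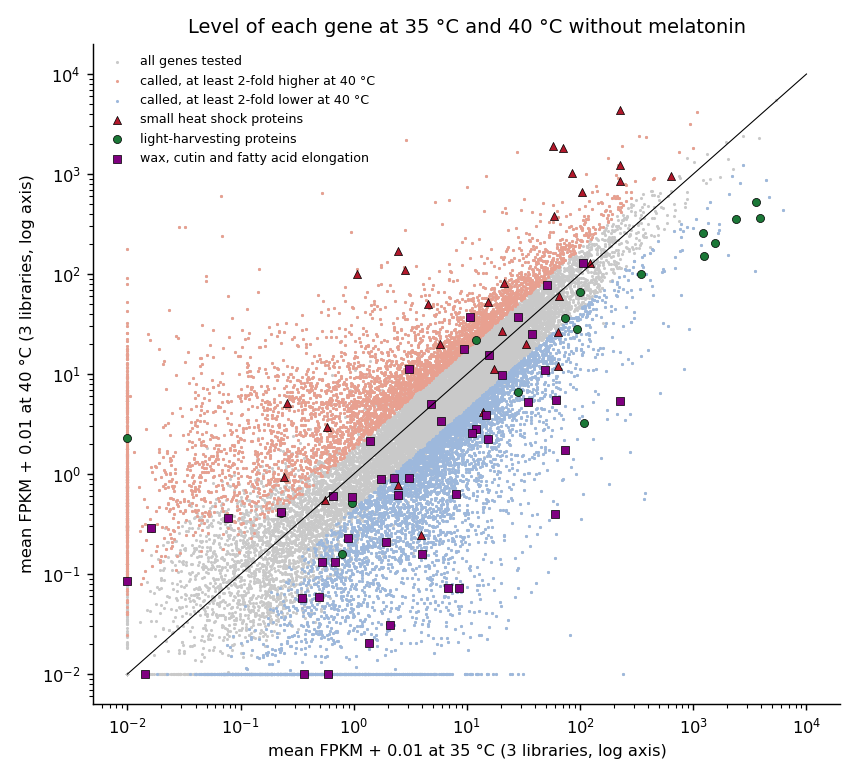
Mean FPKM of each of the 26183 genes tested at 35 °C (x axis) and 40 °C (y axis), both on log axes after adding 0.01, which puts genes at 0 along the edges. The diagonal marks equal levels. Red and blue dots are genes called and at least 2-fold higher or lower. Most small heat shock protein genes (triangles) lie above the diagonal, and the abundant light-harvesting genes (circles) and most wax, cutin and elongation genes (squares) lie below it.

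Some genes went from nearly silent to abundant. Between the temperatures, 219 genes passed from under 0.5 FPKM in every 35 °C library to at least 5 in every 40 °C library, and 89 of them are loci to which the table gives no gene name. The reverse passage was made by 208 genes, of which 49 have no gene name. The 10 most abundant genes held 6.67% to 7.06% of all counts in the 35 °C libraries and 4.63% to 4.66% in the 40 °C libraries. Of the annotated genes called changed without overlap of the groups, galactinol synthase 1, a Rubisco activase and chlorophyll a-b binding proteins were among the most abundant at 35 °C. Small heat shock proteins were among the most abundant of them at 40 °C.

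Small heat shock protein genes had the highest median change of the chaperone lists. Of 30 tested, 21 rose, 18 of them at least 2-fold (60.0% of the list against 18.7% of all genes), and 6 fell, with a median log2 fold change of 2.06. Their summed level went from 2273, 2103 and 2077 FPKM at 35 °C to 14000, 13880 and 14300 FPKM at 40 °C. That is a 6.54-fold difference with no overlap of the libraries. The sum at 25 °C was 2035 FPKM, close to that at 35 °C.

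The most abundant member, an alpha crystallin/Hsp20 domain protein (MSTRG.22177, chromosome 13, 8463100 to 8463576), measured 225, 228 and 220 FPKM at 35 °C and 4409, 4274 and 4268 FPKM at 40 °C. Its log2 fold change was 4.42 ± 0.09 (SE; adjusted p = 1.2e-14). MSTRG.5787, annotated only as a small heat shock protein, measured 49.4, 63.9 and 61.2 FPKM and then 1879, 1959 and 1947 FPKM, a log2 fold change of 5.20 ± 0.12. In both genes the groups lay far apart and the libraries of a group close together.

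A class IV member (MSTRG.19351), a class thought to act in the endoplasmic reticulum, went from a mean of 70.8 ± 11.8 FPKM (SD, n = 3) to 1830 ± 39.0 FPKM. A class I (cytosolic) member, MSTRG.23495, rose from a mean of 2.43 to 170 FPKM (log2 fold change 6.27 ± 0.15). Not every member followed. MSTRG.6922, also annotated as a small heat shock protein, measured 60.3, 67.5 and 63.2 FPKM at 35 °C and 12.7, 11.5 and 11.8 FPKM at 40 °C, and fell by 2.25 ± 0.06 on the log2 scale.

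HSP70 genes split. Of 32 tested, 16 rose and 12 fell, with 11 changed at least 2-fold in each direction, and the summed level went only from a mean of 1693 ± 9.44 to 2175 ± 62.9 FPKM. At 25 °C the sum was higher than both, with a mean of 4001 FPKM. MSTRG.21346 measured 46.5, 45.2 and 49.8 FPKM at 35 °C and 501, 522 and 524 FPKM at 40 °C (log2 fold change 3.60 ± 0.08, adjusted p = 1.2e-14). MSTRG.7480 went the other way, from 433, 436 and 454 FPKM to 63.6, 60.0 and 62.4 FPKM (log2 fold change -2.68 ± 0.03). It was also higher at 25 °C, with a mean of 1814 FPKM, so its level fell with each rise in temperature, whereas MSTRG.21346 had a mean of 3.22 FPKM at 25 °C.

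HSP90 genes mostly rose by less than 2-fold. Of 6 tested, 5 rose, 1 of them at least 2-fold. Their sum had a mean of 1703 FPKM at 35 °C and 2413 FPKM at 40 °C, both below the 2839 FPKM at 25 °C. A heat shock protein 83-like gene (MSTRG.5596) measured 443, 439 and 449 FPKM at 35 °C and 872, 877 and 896 FPKM at 40 °C. The Hsp70-Hsp90 organizing protein MSTRG.12546, which links both chaperones, rose from a mean of 119 ± 2.88 to 262 ± 6.15 FPKM (log2 fold change 1.28 ± 0.03). In the endoplasmic reticulum folding list, 13 of 25 genes rose and 5 fell (7 and 1 at least 2-fold). It includes endoplasmin (MSTRG.23406, the HSP90 of that compartment, from a mean of 144 to 221 FPKM) and a protein disulfide isomerase (MSTRG.19208, 88.4 to 171 FPKM).

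DnaJ co-chaperone genes rose in 29 cases and fell in 9 of 56 tested. The most abundant of those called without overlap of the groups, MSTRG.16401, measured 727, 750 and 762 FPKM at 35 °C and 1607, 1696 and 1676 FPKM at 40 °C. MSTRG.21934, annotated like DnaJ 20, rose from a mean of 25.1 to 136 FPKM. Among chaperonins, the barrel-shaped chaperones of organelles and cytosol, 14 of 31 rose and 9 fell. Chaperonin Cpn10 (MSTRG.15856) rose from a mean of 35.8 to 120 FPKM, and a chaperonin 60 beta subunit (MSTRG.16235) fell from 18.1 to 2.16 FPKM. A merged locus that holds the mitochondrial ClpB4 gene, MSTRG.12979, rose from a mean of 8.45 to 26.6 FPKM.

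Of the heat stress transcription factors, all 19 that were tested are accounted for here: 7 rose, 5 fell and 7 were not called. HSF30 (MSTRG.18818) rose, with 2.90, 3.93 and 3.82 FPKM at 35 °C and 45.6, 39.5 and 40.1 FPKM at 40 °C (log2 fold change 3.70 ± 0.15). HSF B3 (MSTRG.4397) measured 16.2, 18.5 and 16.8 FPKM and then 121, 119 and 122 FPKM (log2 fold change 2.96 ± 0.08). Both left no overlap between the groups, but their histories differed, since HSF30 had a mean of 15.9 FPKM at 25 °C, above its 35 °C level.

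MSTRG.12732, MSTRG.14339 and MSTRG.18634, annotated only as heat shock factor proteins, rose with log2 fold changes of 0.69, 0.91 and 0.98. Factors like HSF C-1 (MSTRG.836), HSF A-4b (MSTRG.10921), HSF A-5 (MSTRG.2709) and HSF A-6b (MSTRG.2066) fell with log2 fold changes of -1.12, -0.94, -0.18 and -1.24. MSTRG.5488, like HSF B-2a and the most abundant of the 19 at 35 °C, measured 45.5, 36.6 and 36.6 FPKM at 35 °C and 37.4, 42.6 and 42.5 FPKM at 40 °C, with overlapping groups and an adjusted p of 0.053 from edgeR. The calls of MSTRG.2709 and MSTRG.5488 turned with the scaling: with median-of-ratios scaling their adjusted p-values in edgeR were 0.060 and 0.013.

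The remaining factors were low or not called. Rhsim09G0213400, like HSF A-1, a class that in tomato and Arabidopsis acts as a master regulator of the response, measured 8.00, 7.06 and 7.59 FPKM and then 7.90, 6.21 and 5.99 FPKM, a log2 fold change of -0.02 that was not called. MSTRG.8331 had 0 counts in all 35 °C libraries and 551 counts over the 40 °C libraries, at 0.923, 1.61 and 2.08 FPKM. Rhsim03G0081300, like HSF A-3, rose and Rhsim06G0051500, an HSF B-4, fell, both below 2 FPKM. The other 5, none called, were Rhsim04G0197300, Rhsim07G0227900, Rhsim09G0088300, Rhsim10G0118300 and Rhsim13G0177200, all at 2.11 FPKM or less in each of the 6 libraries. Of these, Rhsim04G0197300 and Rhsim13G0177200 lay close to the threshold, with adjusted p-values of 0.052 and 0.053 in edgeR. With median-of-ratios scaling both were called higher (adjusted p = 0.0497 and 0.044), with log2 fold changes of 4.38 and 1.43.

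Multiprotein-bridging factor 1c (MSTRG.6033), a co-activator that in Arabidopsis is needed for heat tolerance, measured 71.0, 47.5 and 54.3 FPKM at 35 °C and 289, 362 and 352 FPKM at 40 °C. Its log2 fold change was 2.69 ± 0.13 (adjusted p = 9.3e-11), with all 40 °C libraries higher. A BAG family chaperone regulator (MSTRG.23278) fell from 14.3, 13.9 and 14.0 FPKM to 1.42, 1.36 and 1.49 FPKM. It had a mean of 45.8 FPKM at 25 °C.

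**Figure D2:**
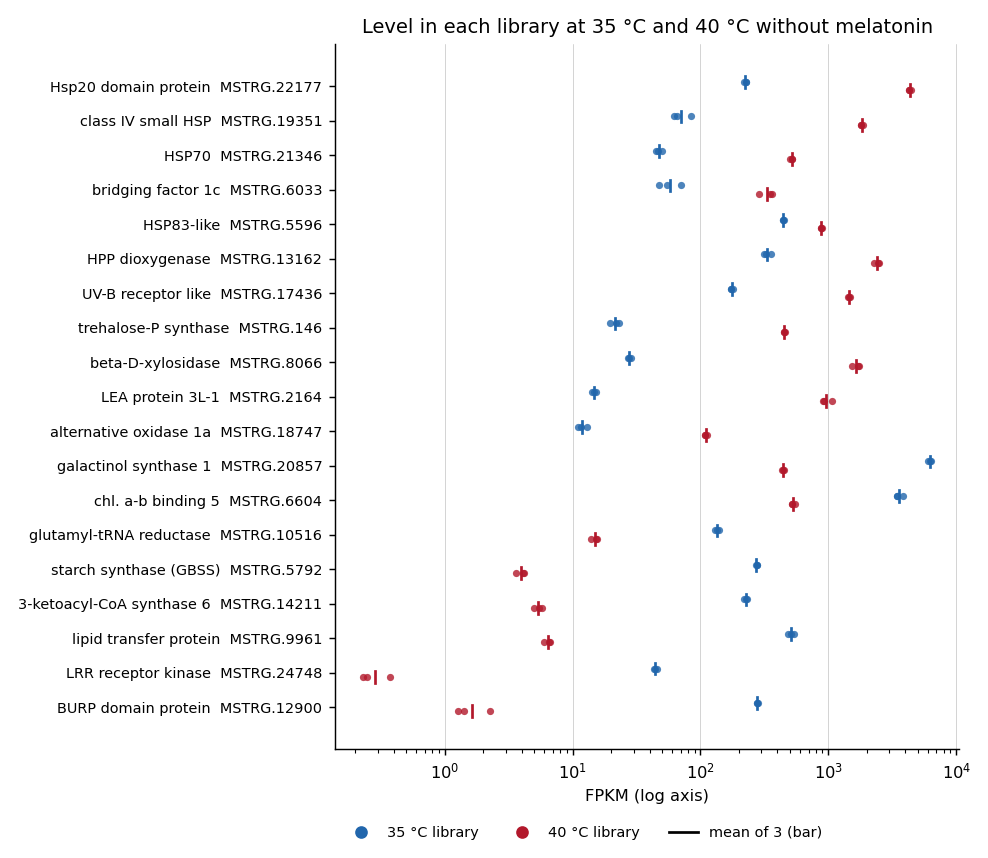
FPKM (log axis) of 19 genes in each 35 °C library (blue) and each 40 °C library (red), with the mean of the 3 as a vertical bar. All are described in the text except the BURP domain protein gene. In none of the 19 do the groups overlap, which was a condition for naming most of the genes. Among all genes tested, 31.0% lay wholly higher and 42.0% wholly lower at 40 °C. Galactinol synthase 1 drops from 6032 or more to 448 or less, and the alpha crystallin/Hsp20 domain gene rises from 228 or less to 4268 or more.

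Transcripts of the light-harvesting antenna, the pigment proteins that gather light for both photosystems, fell steeply. Of 17 genes tested, 13 fell, 11 at least 2-fold (64.7% against 21.8% of all genes), and 2 rose. Summed over the list they measured 15170, 14360 and 14280 FPKM at 35 °C and 2126, 2111 and 2134 FPKM at 40 °C, from 2.10% to 0.337% of all counts. The sum at 25 °C was 15620 FPKM. In RNA from whole leaves, fewer cells of a type and less RNA per cell cannot be told apart.

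Chlorophyll a-b binding protein 5 (MSTRG.6604, chromosome 4, 5063836 to 5065435) measured 3841, 3464 and 3439 FPKM at 35 °C and 550, 515 and 519 FPKM at 40 °C. Its log2 fold change was -2.61 ± 0.05 (adjusted p = 1.3e-14). Protein P4 of photosystem I (MSTRG.21116) went from 2283, 2386 and 2435 FPKM to 366, 342 and 349 FPKM, almost the same ratio. The steepest fall was in chlorophyll a-b binding protein 13 (MSTRG.24636), from 110, 106 and 107 FPKM to 2.90, 3.17 and 3.65 FPKM, a log2 fold change of -4.90 ± 0.07. A light-harvesting complex-like protein (MSTRG.147) went against the list and rose from 13.3, 11 and 11.7 FPKM to 21.8, 23.6 and 20.5 FPKM.

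Electron transport fell less far. Of 29 genes of the photosystems and the chain between them, 23 fell and 4 rose (19 and 2 at least 2-fold), with a median log2 fold change of -1.39. Plastocyanin (MSTRG.10096), the copper protein that carries electrons to photosystem I, measured 2735, 2517 and 2557 FPKM and then 834, 811 and 814 FPKM. Oxygen-evolving enhancer protein 1 (MSTRG.14408), which stabilises the water-splitting centre, went from 2598, 2795 and 2818 FPKM to 1232, 1212 and 1230 FPKM (log2 fold change -1.01 ± 0.03). At 40 °C its mean lay above that of every antenna gene on the list, whereas at 35 °C 2 antenna genes lay above it.

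Chlorophyll metabolism was rearranged rather than lowered throughout. Of 21 synthesis genes, 13 fell and 6 rose. Glutamyl-tRNA reductase (MSTRG.10516), the first committed enzyme of the pathway, measured 141, 134 and 131 FPKM at 35 °C and 15.1, 13.8 and 15.6 FPKM at 40 °C (log2 fold change -3.03 ± 0.05). The genes for protochlorophyllide reductase, the light-dependent step, moved apart: MSTRG.6417 fell from a mean of 435 ± 4.21 to 76.7 ± 1.54 FPKM, and MSTRG.11421 rose from 216 ± 2.99 to 574 ± 39.0 FPKM. Before the step the first was the more abundant and after it the second.

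In the list of chlorophyll breakdown and senescence, 11 of 17 genes fell and 4 rose. Pheophorbide a oxygenase (MSTRG.22302), which opens the chlorophyll ring during breakdown, rose from 24.0, 21.7 and 24.9 FPKM to 83.8, 88.7 and 89.7 FPKM. Chlorophyllase-2 (MSTRG.2431), which removes the phytol tail, fell from a mean of 20.5 to 4.32 FPKM.

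Of 19 Calvin cycle genes, 13 fell, 9 of them at least 2-fold, and 1 rose by less than that. The summed level went from 9044, 10040 and 9100 FPKM to 3102, 3026 and 3023 FPKM. The Rubisco activase genes took different courses. MSTRG.22136 fell by 2.83 ± 0.02 on the log2 scale, while Rubisco activase 1 (MSTRG.9620) measured 170, 167 and 175 FPKM and then 153, 149 and 159 FPKM, a log2 fold change of -0.00 that was not called. DESeq2 called a rise of 0.066 in the latter, the value edgeR gave with the same scaling without calling it, and limma on log2(FPKM + 1) a fall of 0.15, both on the log2 scale. The large subunit of Rubisco itself, encoded in the plastid genome (MSTRG.51), measured 54.2, 62.6 and 63.0 FPKM and then 9.76, 5.39 and 3.69 FPKM. Plastid transcripts mostly lack the poly(A) tail by which these libraries were selected, so these levels stand for a small share of them.

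A merged carbonic anhydrase locus (MSTRG.17143), whose product speeds the supply of carbon dioxide, went from 1713, 1671 and 1691 FPKM to 285, 276 and 271 FPKM. In photorespiration, the salvage route for the oxygenation product of Rubisco, 11 of 25 genes fell and 8 rose, near the background in both directions. Its abundant mitochondrial and peroxisomal steps fell: a merged serine hydroxymethyltransferase locus (MSTRG.14246) went from a mean of 412 to 86.7 FPKM and serine-glyoxylate aminotransferase (MSTRG.23052) from 1303 to 820 FPKM.

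**Figure D3:**
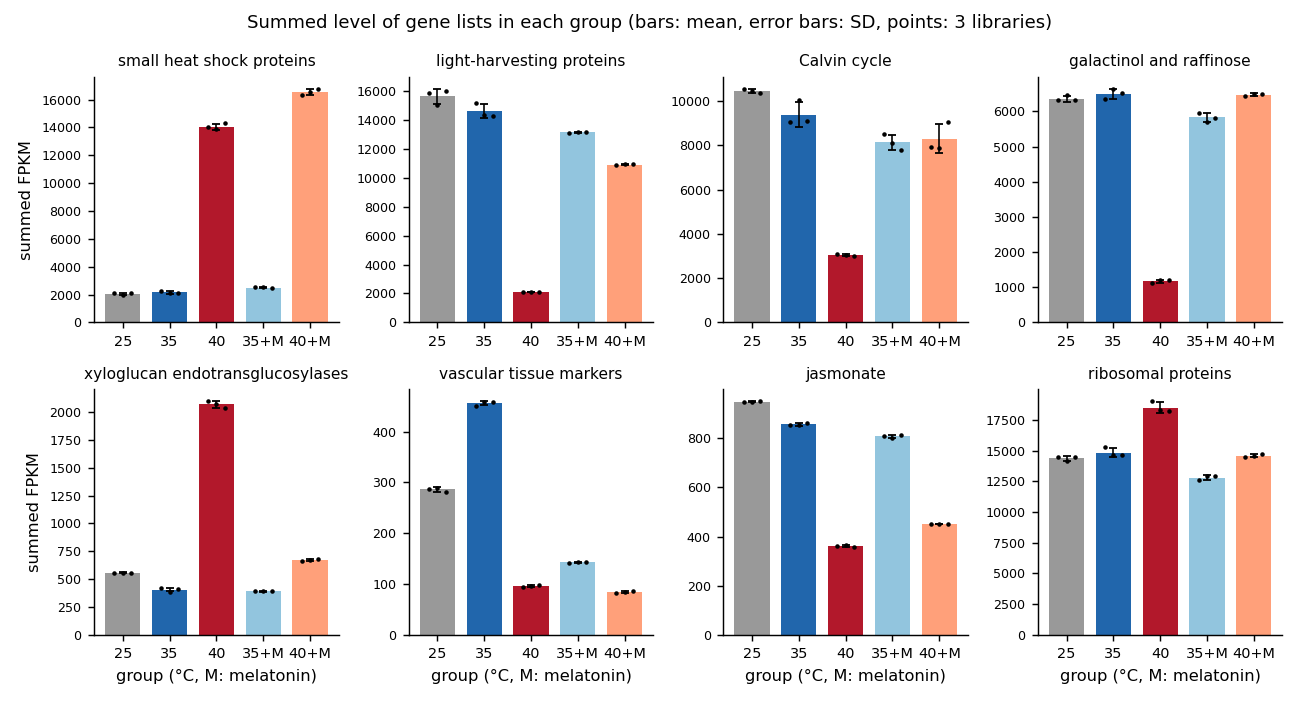
Summed FPKM of 8 gene lists in the 5 groups; bars are means of 3 libraries, error bars are SD, points are libraries, and M marks melatonin. For small heat shock proteins both 40 °C bars stand far above the others, with means of 14060 without and 16540 with melatonin. For light-harvesting genes the 40 °C bar without melatonin stands apart, with a mean of 2123 against 10910 with melatonin.

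Galactinol synthase 1 (MSTRG.20857, chromosome 12, 18674010 to 18677112) fell steeply. Among annotated genes called changed without overlap of the groups, it was the most abundant at 35 °C. This enzyme makes galactinol, the building block of raffinose sugars that protect cells in drought and heat. It measured 6032, 6352 and 6260 FPKM at 35 °C and 440, 434 and 448 FPKM at 40 °C, a 14.1-fold lower mean (log2 fold change -3.67 ± 0.02, adjusted p = 1.1e-19). The mean at 25 °C was 5838 FPKM.

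Another galactinol synthase (MSTRG.19247) moved oppositely, from 237, 201 and 199 FPKM to 551, 628 and 610 FPKM, and at 40 °C it was the more abundant of the pair. A raffinose-forming galactosyltransferase (MSTRG.11702) had 0 counts in all 35 °C libraries and measured 20.8, 23.5 and 23.1 FPKM at 40 °C. Over the whole list of 13 genes, 6 rose and 5 fell.

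The amylose-making, granule-bound starch synthase gene (MSTRG.5792), on chromosome 3 from 33743555 to 33747716, measured 274, 272 and 276 FPKM at 35 °C and 3.63, 4.15 and 4.06 FPKM at 40 °C. The mean was 69.4-fold lower (log2 fold change -5.96 ± 0.05, adjusted p = 1e-18). At 25 °C it had been 932 FPKM. Beta-amylase 4 (MSTRG.2591) rose from 221, 213 and 214 FPKM to 1208, 1265 and 1256 FPKM; the beta-amylase family breaks starch down, although this member is a weak or inactive enzyme in Arabidopsis. Counted over 27 starch genes, 8 rose and 10 fell, 3 in each direction at least 2-fold.

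Genes of the trehalose list mostly fell (9 of 15, with 4 higher), though the summed level rose from a mean of 196.5 to 643.1 FPKM. The list includes trehalose-phosphate synthases, whose product signals sugar status. The abundant MSTRG.146 rose, with 19.8, 23.0 and 21.8 FPKM at 35 °C and 448, 452 and 461 FPKM at 40 °C. MSTRG.12730 fell from a mean of 9.71 to 0.584 FPKM. Of 71 genes for sucrose metabolism and sugar transport, 40 fell and 18 rose; an ERD6-like sugar transporter (MSTRG.2113) rose from a mean of 3.25 to 28.8 FPKM.

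Respiration showed a mixed picture, with 19 of 46 mitochondrial respiration genes higher and 14 lower. Alternative oxidase 1a (MSTRG.18747), which lets electrons bypass the energy-conserving steps, went from 12.9, 11.6 and 11.1 FPKM to 110, 109 and 114 FPKM (log2 fold change 3.37 ± 0.08). An aconitase gene (MSTRG.11579) of the citrate cycle rose from a mean of 1.27 to 26.9 FPKM. Proline dehydrogenase (MSTRG.14201), which starts the breakdown of the protective amino acid proline, rose from 36.1, 36.8 and 35.7 FPKM to 172, 170 and 173 FPKM. Of the 7 genes of proline metabolism, 4 were called higher.

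A few enzymes that remodel xyloglucan, the tether between cellulose fibres, rose steeply. Of 13 xyloglucan endotransglucosylase genes tested, 6 rose and 1 fell, 5 and 1 at least 2-fold, and the median log2 fold change was 0.30. The sum, which MSTRG.22297 and MSTRG.14257 dominated at 40 °C, went from 419, 388 and 409 FPKM to 2099, 2069 and 2041 FPKM. MSTRG.22297 had 0, 0 and 0.171 FPKM at 35 °C and 589, 614 and 594 FPKM at 40 °C, or 16 counts against 157252. MSTRG.14257 measured 222, 210 and 216 FPKM and then 956, 886 and 885 FPKM. It was therefore the largest part of the sum at both temperatures.

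Wall-degrading enzymes also rose far in single genes. A beta-D-xylosidase (MSTRG.8066, chromosome 4, 37078069 to 37085826) measured 27.0, 27.4 and 28.6 FPKM at 35 °C and 1539, 1724 and 1711 FPKM at 40 °C (log2 fold change 6.06 ± 0.07). A beta-galactosidase (MSTRG.15226) went from 9.86, 8.93 and 10.9 FPKM to 700, 762 and 759 FPKM. A pectate lyase (MSTRG.14880) went from 6.39, 5.75 and 5.96 FPKM to 310, 324 and 320 FPKM. All of these had less than 30 FPKM in each 35 °C library. Over the 84 pectin enzyme genes the directions balanced, with 32 higher and 34 lower.

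Expansins, which loosen walls in growing cells, fell in 8 of 19 genes and rose in 4. Alpha-expansin MSTRG.5313 measured 53.8, 53.2 and 53.7 FPKM at 35 °C and 0.325, 0.566 and 0.113 FPKM at 40 °C. Expansin-A1 (MSTRG.20456) rose from 81.5, 93.8 and 89.2 FPKM to 253, 241 and 247 FPKM. It alone came to most of the expansin sum at 40 °C, which had a mean of 334.8 ± 6.20 FPKM. Of 19 tubulin and actin genes of the cytoskeleton, 12 fell and 4 rose: a tubulin beta chain (MSTRG.21008) fell from a mean of 43.9 to 5.72 FPKM and tubulin beta-2 (MSTRG.9679) rose from 15.6, 16.6 and 15.7 FPKM to 47.0, 49.5 and 52.9 FPKM.

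Most genes listed for wax, cutin and fatty acid elongation fell: 31 of 47 were called lower, 27 at least 2-fold (57.4% of the list), and 10 higher, 6 at least 2-fold. The authors' KEGG entry for cutin, suberine and wax biosynthesis leaned less far, with 13 of 39 genes lower and 9 higher at least 2-fold and a median log2 fold change of -0.37. 3-ketoacyl-CoA synthase 6 (MSTRG.14211), which lengthens fatty acids for wax, measured 230, 229 and 219 FPKM at 35 °C and 5.49, 4.96 and 5.76 FPKM at 40 °C (log2 fold change -5.23 ± 0.06). An ECERIFERUM-like gene (MSTRG.12088), named after waxless mutants, went from 60.4, 58.4 and 59.9 FPKM to 0.575, 0.349 and 0.255 FPKM. A lipid transfer protein precursor (MSTRG.9961) fell from 536, 486 and 508 FPKM to 6.71, 5.98 and 6.59 FPKM. Each of the 3 was under 7 FPKM in every 40 °C library.

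In fatty acid synthesis and desaturation 22 of 42 genes fell and 14 rose, 16 and 7 at least 2-fold, with a median log2 fold change of -0.38. Among those that rose was a pair of delta-12 desaturase genes, which place the second double bond of membrane lipids. MSTRG.7077 went from a mean of 8.98 to 209 FPKM and MSTRG.24335 from 9.53 to 227 FPKM. Their levels nearly matched in every group, so reads shared between near-identical copies could not be told from separate expression. Squalene epoxidase (MSTRG.14264) of sterol synthesis fell from 150, 158 and 150 FPKM to 1.35, 1.59 and 1.33 FPKM.

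Among 20 aquaporin genes, the membrane channels for water, 7 fell and 4 rose. At least 2-fold, 4 fell and 3 rose, close to the background. The abundant plasma membrane PIP2-8 (MSTRG.19937) fell from a mean of 678 ± 43.4 to 504 ± 6.03 FPKM and AQU17 (MSTRG.5239) from 550 ± 31.1 to 283 ± 15.8 FPKM. Late embryogenesis abundant proteins, which protect drying cells, did not move as a set (6 of 15 rose, 7 fell). LEA 3L-1 (MSTRG.2164) measured 15.2, 14.1 and 14.6 FPKM at 35 °C and 1065, 917 and 903 FPKM at 40 °C, while a gene of the same name (MSTRG.21656) fell from 680, 685 and 705 FPKM to 428, 439 and 451 FPKM.

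**Figure D4:**
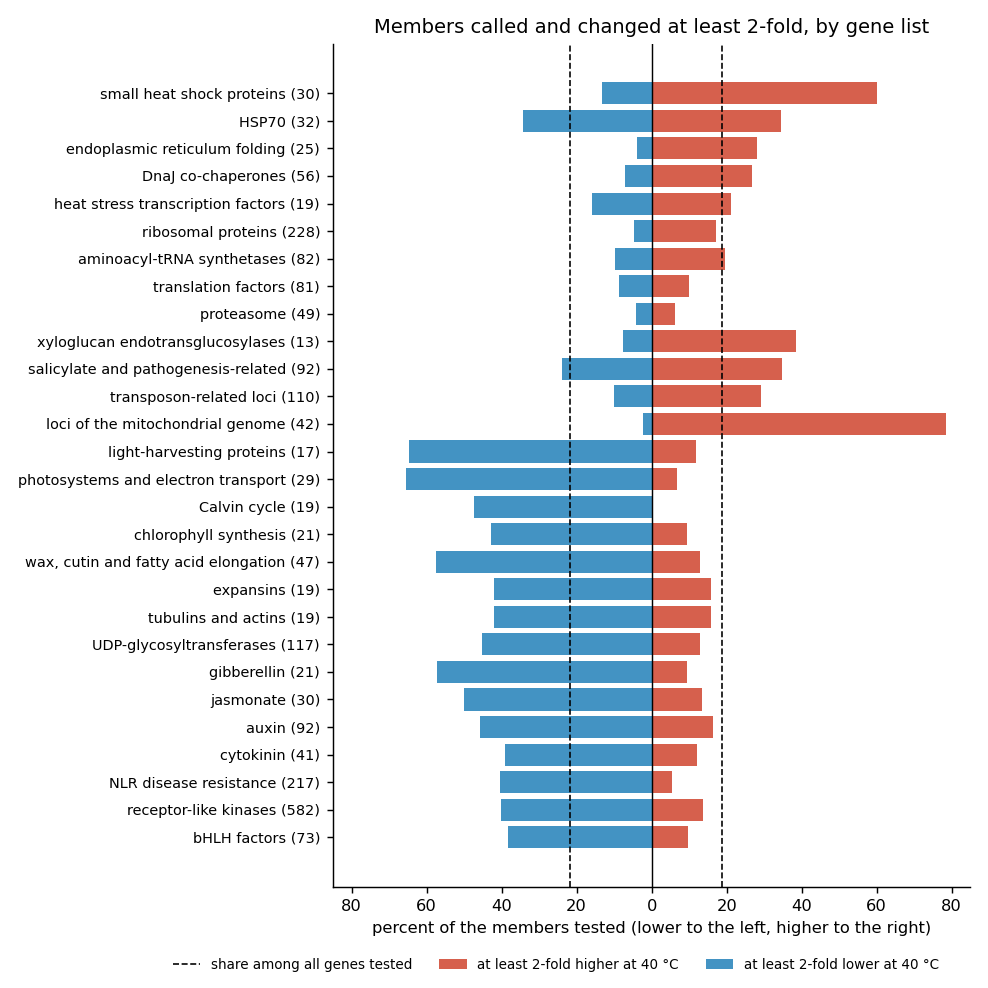
Percent of the tested members of 28 gene lists (number tested in brackets) that were called and at least 2-fold higher (red, right) or lower (blue, left) at 40 °C. Dashed lines mark the same shares among all genes, 18.7% and 21.8%. Loci of the mitochondrial genome (78.6%) and small heat shock proteins (60.0%) reach farthest right, and photosystems (65.5%) and light-harvesting genes (64.7%) farthest left.

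Gibberellin, cytokinin, auxin and jasmonate lists all held more falls than rises. Of 21 gibberellin genes 12 fell, each at least 2-fold, and 8 rose. A gibberellin 2-beta-dioxygenase (MSTRG.8134), which inactivates the hormone, rose from a mean of 0.724 to 11.7 FPKM, and the growth repressor DELLA (MSTRG.13739) measured 327, 304 and 293 FPKM and then 340, 407 and 408 FPKM. The DELLA change was called (log2 fold change 0.47 ± 0.06, adjusted p = 7.1e-06), and its groups did not overlap, though 327 and 340 FPKM lay close.

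Of 41 cytokinin genes, 20 fell and 7 rose. A response regulator-like gene (MSTRG.21108) was a large exception, from 1.66, 1.03 and 1.18 FPKM to 66.3, 65.8 and 66.4 FPKM. Of 30 jasmonate genes 21 fell and 4 rose, and the sum went from 853, 854 and 864 FPKM to 361, 365 and 357 FPKM. The enzyme that makes the active conjugate (jasmonic acid-amido synthetase, MSTRG.6849) fell from 55.3, 49.6 and 51.9 FPKM to 2.50, 2.91 and 3.35 FPKM. A hydroperoxide lyase (MSTRG.6746), which diverts the same precursors into leaf volatiles, fell from a mean of 143 to 6.29 FPKM.

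Of 92 auxin genes, 54 fell and 18 rose. The transcriptional repressor IAA16-like (MSTRG.2056) fell from a mean of 44.8 to 1.86 FPKM, and an auxin-repressed protein (MSTRG.3313) from 2189, 2208 and 2235 FPKM to 928, 969 and 944 FPKM. In ethylene signalling 11 of 25 genes fell and 4 rose. The central transcription factor gene ETHYLENE INSENSITIVE-like (MSTRG.1501) and its destroyer, EIN3-binding F-box protein (MSTRG.3773), fell from means of 356 to 148 and of 74.8 to 13.7 FPKM.

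Among 42 abscisic acid genes, 20 fell and 8 rose. A receptor gene (MSTRG.5665) rose from 26.5, 28.2 and 26.2 FPKM to 66.1, 62.2 and 69.2 FPKM. Brassinosteroid signalling was a small list of 8 with 5 rises and 3 falls: a BES1/BZR1 transcription factor (MSTRG.3408) rose from 32.4, 31.4 and 28.7 FPKM to 154, 160 and 156 FPKM, and a gene annotated as the receptor kinase BRI1 (MSTRG.10366) fell from a mean of 27.2 to 3.49 FPKM.

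Genes for NLR proteins, the intracellular receptors for pathogen effectors, fell widely. Of 217 tested, 109 fell and 17 rose (88 and 12 at least 2-fold, 40.6% against 5.53%), with a median log2 fold change of -1.02. The summed level moved less, from a mean of 478.9 ± 4.03 FPKM at 35 °C to 425.2 ± 4.54 FPKM at 40 °C. The most abundant of those called without overlap of the groups (MSTRG.11890) rose slightly, from a mean of 70.2 to 82.5 FPKM. That call was lost without replicate 2 at 35 °C (adjusted p = 0.073 by edgeR). MSTRG.6405 rose from a mean of 5.48 to 50.1 FPKM. MSTRG.4431 had 0 counts at 35 °C and measured 7.74, 7.56 and 8.53 FPKM at 40 °C.

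Receptor-like kinases, the cell surface sensors, fell in 285 of 582 cases and rose in 120. A LysM-type receptor kinase annotated as NFP (MSTRG.2462) fell from 202, 178 and 186 FPKM to 43.4, 42.6 and 42.0 FPKM. A leucine-rich repeat kinase (MSTRG.24748) fell from 43.0, 44.2 and 46.1 FPKM to 0.231, 0.246 and 0.377 FPKM, and another annotated as inactive (MSTRG.7272) rose from a mean of 0.103 to 45.0 FPKM. Of 138 calcium signalling genes 64 fell and 35 rose; the calcium sensor CML29 (MSTRG.10802) fell from 269, 264 and 264 FPKM to 16.1, 13.2 and 13.1 FPKM.

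Pathogenesis-related proteins took the other course. Of 92 tested, 39 rose and 27 fell, 32 and 22 at least 2-fold, and the sum went from 572, 517 and 533 FPKM to 1537, 1835 and 1830 FPKM. A merged PR-1 locus (MSTRG.19662) measured 6.87, 4.12 and 4.70 FPKM at 35 °C and 365, 609 and 598 FPKM at 40 °C, and replicate 1 at 40 °C was the lowest of that group in both values. An endochitinase (MSTRG.8550), which cuts fungal walls, rose from a mean of 44.4 to 343 FPKM. Germin-like protein genes MSTRG.23584 and MSTRG.19392, the latter merged, went from at most 0.0677 FPKM in any 35 °C library to means of 298 and 91.7 FPKM.

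Basic helix-loop-helix (bHLH) factors fell more often than they rose (36 against 14 of 73), while MYB factors balanced (30 against 30 of 85). MYB25 (MSTRG.17777) measured 136, 120 and 124 FPKM and then 641, 670 and 678 FPKM. bHLH137 (MSTRG.21310) fell from a mean of 69.9 ± 2.19 to 1.65 ± 0.0445 FPKM (log2 fold change -5.24 ± 0.05). A dehydration-responsive element-binding factor (MSTRG.16730), of the DREB group that acts in drought and heat, rose from 5.58, 8.65 and 6.67 FPKM to 82.1, 88.4 and 90.2 FPKM.

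NAC factors fell in 19 of 44 cases and rose in 14; MSTRG.20464 rose from a mean of 21.0 to 140 FPKM. Of 29 clock and light signalling genes 17 fell and 7 rose. REVEILLE genes, MYB-like clock factors, were among the rises: MSTRG.18265 went from 96.7, 87.0 and 98.2 FPKM to 227, 223 and 216 FPKM, and MSTRG.13765 from a mean of 1.69 to 44.8 FPKM. Their partner LNK1 (MSTRG.8977) fell from 110, 104 and 100 FPKM to 57.5, 61.0 and 55.4 FPKM. A gene like the ultraviolet-B receptor UVR8 (MSTRG.17436, chromosome 10, 8011814 to 8020290) rose from 172, 174 and 180 FPKM to 1486, 1436 and 1447 FPKM (log2 fold change 3.21 ± 0.03).

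Ribosomal protein genes rose more often than they fell (116 against 41 of 228), but mostly by little: 39 rose and 11 fell at least 2-fold. Their sum went from 15280, 14630 and 14640 FPKM to 19040, 18280 and 18220 FPKM. Ribosomal protein S17 (MSTRG.8668) rose from 462, 424 and 421 FPKM to 764, 640 and 634 FPKM. A chloroplast-type 30S ribosomal protein gene (MSTRG.4237) fell from 39.7, 31.0 and 38.7 FPKM to 3.37, 4.37 and 3.32 FPKM.

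Aminoacyl-tRNA synthetases, which load amino acids, rose in 39 and fell in 17 of 82 cases, and translation factors in 41 and 22 of 81. Isoleucine-tRNA ligase (MSTRG.18239) fell from a mean of 155 to 55.4 FPKM and cysteine-tRNA ligase (MSTRG.3792) rose from 14.8 to 50.3 FPKM. Translation initiation factor 5A-2 (MSTRG.3855) measured 598, 387 and 372 FPKM and then 1238, 756 and 747 FPKM, with replicate 1 far above the others at both temperatures. A DEAD-box RNA helicase (MSTRG.5451) went from 160, 154 and 156 FPKM to 511, 507 and 524 FPKM. Of 119 splicing and RNA processing genes 51 rose and 27 fell.

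Of 49 proteasome genes 21 rose and 13 fell, only 3 and 2 of them at least 2-fold, fewer than the background shares. Subunit alpha 1-A (MSTRG.10230) rose from a mean of 37.0 to 84.0 FPKM. Ubiquitin ligases and F-box proteins lay slightly below the background, with 192 of 623 higher and 199 lower. A BOI-related ubiquitin ligase (MSTRG.8596) rose from a mean of 4.14 to 70.7 FPKM. In autophagy, the bulk recycling of cell contents, 12 of 39 rose and 15 fell, and its ATG8 genes moved apart: MSTRG.22651 from a mean of 19.3 to 68.1 FPKM and MSTRG.24566 from 135 to 88.1 FPKM.

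The common scavengers of reactive oxygen fell slightly where they were abundant. Catalase (MSTRG.18342) went from 478, 473 and 481 FPKM to 298, 300 and 305 FPKM and ascorbate peroxidase (MSTRG.1696) from 237, 232 and 235 FPKM to 154, 162 and 162 FPKM. In the whole list of 30 such enzymes 11 rose and 11 fell. Monothiol glutaredoxin S9 (MSTRG.2130) fell from 336, 351 and 352 FPKM to 15.9, 15.5 and 14.3 FPKM. Of 38 class III peroxidases, which act on the wall, 14 rose and 9 fell, with a median log2 fold change of 0.46. They included a rise from a mean of 66.4 to 316 FPKM (MSTRG.1842) and a fall from 102 to 0.345 FPKM (MSTRG.13552).

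The route from tyrosine to the antioxidant tocopherols showed a large rise at its entry. Aromatic amino acid aminotransferase 1 (MSTRG.6438), which can make 4-hydroxyphenylpyruvate from tyrosine, measured 7.16, 7.26 and 6.57 FPKM at 35 °C and 526, 562 and 556 FPKM at 40 °C. 4-Hydroxyphenylpyruvate dioxygenase (MSTRG.13162, chromosome 7, 29362837 to 29367770), the next enzyme, went from 359, 323 and 314 FPKM to 2256, 2474 and 2458 FPKM (log2 fold change 3.00 ± 0.06, adjusted p = 4e-15). The route was described after its values had been seen, since no list had been written for it.

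UDP-glycosyltransferases, which attach sugars to hormones and pigments, fell in 61 and rose in 32 of 117 cases. Of 70 flavonoid and anthocyanin genes 37 fell and 12 rose, and of 80 phenylpropanoid and lignin genes 41 fell and 19 rose. Of the latter list, 20 had 0 counts in at least 1 of the groups, and with these at the floor of 3 counts per group its median log2 fold change was -0.62 in place of -0.73. A merged metallothionein type 3 locus (MSTRG.11444), a small metal-binding protein, fell from 3676, 3698 and 3144 FPKM to 130, 91.5 and 102 FPKM, a 32.5-fold lower mean.

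The table holds 3033 assembled loci without a gene name. Of the 3010 tested, 801 rose and 720 fell at least 2-fold, or 26.6% and 23.9%, both above the background. Transposon-related loci, the coding remnants of mobile elements, rose in 40 and fell in 16 of 110 cases (32 and 11 at least 2-fold). A locus annotated as a retrovirus-related Pol polyprotein (MSTRG.9621) had 0 counts in all 35 °C libraries and measured 17.6, 12.7 and 12.4 FPKM at 40 °C, and a merged locus of the same annotation (MSTRG.9465) fell from a mean of 12.8 to 0.0895 FPKM.

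Of 42 loci of the mitochondrial genome, 33 rose, all at least 2-fold, and 1 fell, with a median log2 fold change of 3.91. Their sum measured 27.3, 46.0 and 42.9 FPKM at 35 °C and 294, 305 and 301 FPKM at 40 °C, or 0.0201% and 0.214% of all counts. Mitochondrial transcripts in plants carry few stable poly(A) tails, so these libraries, made from poly(A) RNA, hold a small share of them.

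Phloem and other vascular markers fell in 8 of 14 genes and rose in 5, and their sum went from 451, 458 and 459 FPKM to 94.4, 96.7 and 98.8 FPKM. Most of that sum at 35 °C was 1 gene for a sieve element occlusion protein (MSTRG.14865), which fell from a mean of 370 to 0.551 FPKM, while a PHLOEM PROTEIN 2-like gene (MSTRG.14278) rose from 23.3 to 51.7 FPKM. Guard cell markers fell in 5 of 7 genes, but their sum rose from 88.7, 82.1 and 81.5 FPKM to 215, 271 and 268 FPKM with 1 gene annotated like ASPARTIC PROTEASE IN GUARD CELL 1 (MSTRG.16166), which went from a mean of 28.4 to 236 FPKM.

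Pollen and flower markers rose in 11 and fell in 3 of 30 genes, all at least 2-fold, from a sum of 94.8 to 104 FPKM at 35 °C to one of 343 to 371 FPKM at 40 °C. A pollen-specific extensin (MSTRG.19799) went from a mean of 2.75 to 118 FPKM. Root markers summed to 57.2 to 58.7 FPKM and then 76.0 to 79.2 FPKM, and cell division genes rose in 46 and fell in 40 of 154 cases. Their part in the changes of the other lists was not tested.

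The libraries with melatonin share none with those above, so the difference between the steps could be tested directly. It was called for 12694 genes, 48.5% of those tested, with the log2 fold change of the step higher without melatonin in 21.3% and lower in 27.2%, whatever its sign. With melatonin, 10.3% of genes rose and 13.0% fell at least 2-fold from 35 °C to 40 °C. Of the 4887 genes that rose at least 2-fold without melatonin, 2754 had a smaller or opposite step with it by this test and 135 a larger one. Of the 5715 that fell, the counts were 3645 and 143. These genes were chosen by their step without melatonin, which also enters the test of the difference. That choice by itself tilts the counts towards smaller steps with melatonin.

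The lists parted in how far they differed. All but 4 of the 17 light-harvesting genes passed the test of the difference, and the list's median log2 fold change was -1.96 without and -0.11 with melatonin. For 29 photosystem genes the medians were -1.39 and -0.42, and 23 passed. Chlorophyll synthesis genes had medians of -0.52 and 0.21, with 18 of 21 passing. NLR genes had medians of -1.02 and -0.23, with 87 of 217 passing, a share of 40.1% that lies below the 48.5% of all genes.

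Chaperone lists did not move alike with melatonin. The small heat shock protein medians were 2.06 without and 1.49 with it. Of these genes 18 of 30 passed the test of the difference, or 60.0% against 48.5% of all genes. Summed, they reached a mean of 16540 FPKM at 40 °C with melatonin and 14060 FPKM without it. All 6 HSP90 genes passed, in both directions: HSP83-like MSTRG.5596 rose by more with melatonin (log2 fold change 2.23) than without (1.14), and endoplasmin MSTRG.23406 by less (0.11 against 0.77). For MSTRG.21346 (HSP70) the steps were 3.47 and 3.60, for MSTRG.6033 (bridging factor 1c) 2.50 and 2.69, and neither difference was called (adjusted p = 0.30 and 0.39). The medians were higher with melatonin for HSP90 (0.50 without and 0.98 with it), HSP70 (0.25 and 0.42) and chaperonins (0.14 and 0.25). They were lower with it for the DnaJ, endoplasmic reticulum folding and HSP100/ClpB lists. The DnaJ medians were 0.46 without and 0.08 with it, and the DnaJ sum at 40 °C had a mean of 4948 FPKM without and 2730 FPKM with melatonin. For endoplasmic reticulum folding the medians were 0.52 and 0.17, and for the 5 genes of HSP100/ClpB 1.59 and -0.41. The HSP100/ClpB sum at 40 °C went against its median, with a mean of 29.7 FPKM without and 41.9 FPKM with melatonin.

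The wax list fell in both settings, with medians of -1.84 without and -1.42 with melatonin. The difference test was passed by 23 of its 47 genes, or 48.9%, close to the 48.5% of all genes. For 3-ketoacyl-CoA synthase 6 (MSTRG.14211) the steps were -5.23 and -5.07 (adjusted p of the difference 0.11) and for the ECERIFERUM-like gene (MSTRG.12088) -7.09 and -7.06 (adjusted p = 0.97). Alpha-expansin MSTRG.5313 also fell in both, by 7.13 and 7.59 on the log2 scale. These p-values do not show that the steps were equal.

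Several of the genes described above moved the other way or hardly at all with melatonin. Granule-bound starch synthase (MSTRG.5792) had means of 199 FPKM at 35 °C and 341 FPKM at 40 °C with melatonin, against 274 and 3.95 FPKM without it (adjusted p of the difference 7.3e-18). Galactinol synthase 1 (MSTRG.20857) had 5419 and 6125 FPKM with melatonin. Trehalose-phosphate synthase MSTRG.146 had means of 14.7 and 11 FPKM, and the xyloglucan enzyme MSTRG.22297 had 0.0953 and 0.280 FPKM. Rubisco activase 1 (MSTRG.9620), level without melatonin, went from a mean of 180 to 1653 FPKM with it, and expansin-A1 (MSTRG.20456) from 249 to 5.27 FPKM.

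**Figure D5:**
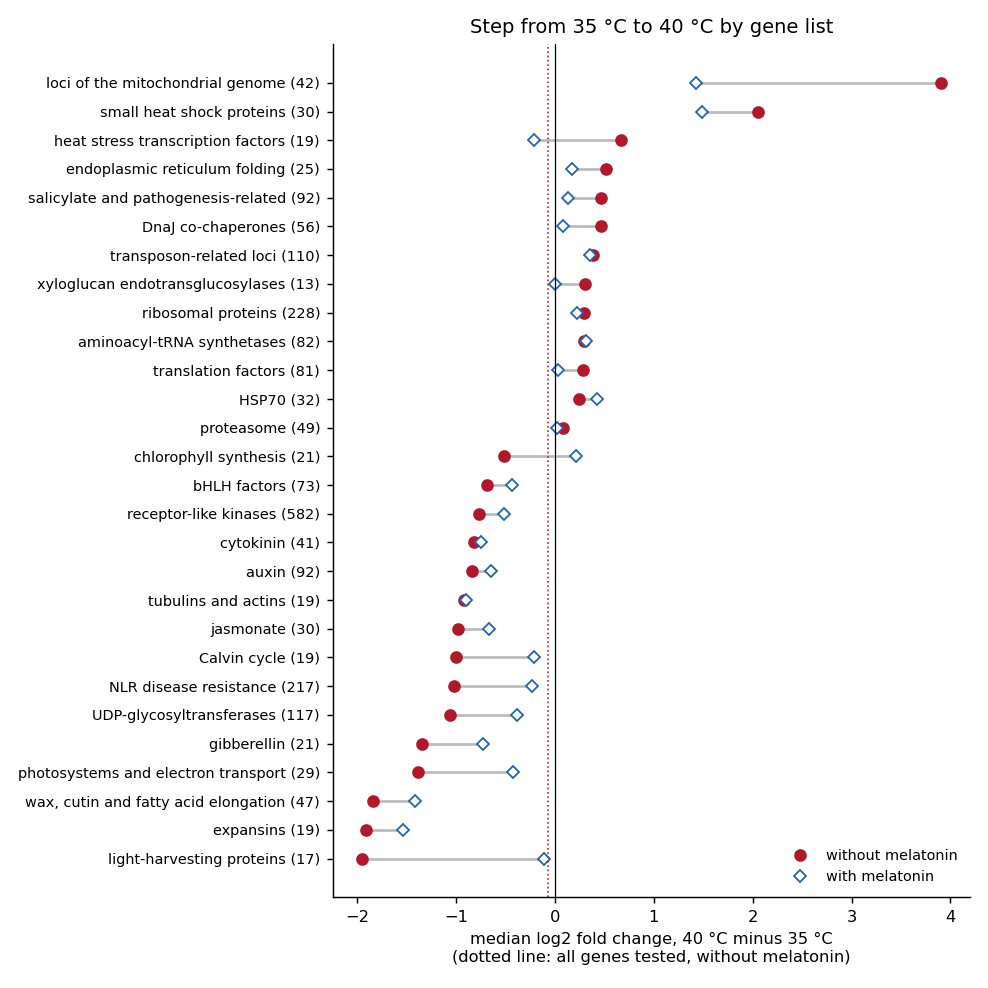
Median log2 fold change from 35 °C to 40 °C of 28 gene lists (number tested in brackets) without melatonin (filled circles) and with melatonin (open diamonds); the dotted line is the median of all genes without melatonin, -0.07. The circles lie farther from 0 than the diamonds for light-harvesting genes (-1.96 and -0.11) and mitochondrial genome loci (3.91 and 1.43), and close to them for tubulins and actins (-0.92 and -0.90).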

How the data were processed

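Leaf poly(A) RNA was sequenced as strand-marked libraries, per the labels' protocols. The authors deposited 1 table with a count and an FPKM value for each gene and library. The submitters' processing notes name cutadapt 1.9, HISAT2 2.0.4 and StringTie 1.3.4d; for the genome build and the strand setting, not given in the sources used here, nothing is assumed. Among counts from 1 to 20, 58.8% to 63.0% were even. In the table, 6 further columns match no labelled sample and were not used.

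Counts of the 15 labelled libraries were fitted with edgeR 4.0.16 (R 4.3.3) by its quasi-likelihood test, with TMM scaling, filterByExpr and 5 group means. This left 26183 of 29985 genes and 10 residual degrees of freedom. P-values were adjusted by the Benjamini-Hochberg method over all genes tested. On simulated data, 37 and 34 of 50 genes changed by 1 and -1 on the log2 scale were recovered, and 49 and 45 of 50 changed by 2 and -2, with 6 false calls among 26183 genes. The changes were few, balanced in direction and placed only in well-counted genes. The simulation therefore cannot show how scaling or false calls behave where 69.3% of genes are called.

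Gene lists were made by matching words in the gene descriptions and are described without a test. The members and lists were chosen with earlier results of these data known. Genes are named from the largest changes, the most abundant genes, the extremes of each list, every heat stress transcription factor, and the clearest differences between the steps. Those named for change, abundance or as list extremes had to be called and informatively described. They also needed a mean of at least 5 FPKM in the higher group and no overlap of the groups. The tyrosine route was picked out after its values were seen. Loci with several gene names, 1316 in all, are called merged, and near-identical copies may share reads. Alternatives used limma 3.58.1 and DESeq2 1.42.0.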

Additional observations from a re-analysis of the deposited data

Results flagged for a closer look

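The test of the difference between the steps without and with melatonin was passed by 12694 genes. In the genes with the smallest p-values, the log2 step without melatonin minus that with melatonin was as follows. It was -3.91 for galactinol synthase 1 (MSTRG.20857) and -6.80 for granule-bound starch synthase (MSTRG.5792). It was -2.94 for chlorophyll a-b binding protein 8 (MSTRG.6506), -2.54 for protein P4 (MSTRG.21116) and -2.64 for a chlorophyll a-b binding domain protein (MSTRG.10776). Rubisco activase MSTRG.22136 differed by -2.12 and Rubisco activase 1 (MSTRG.9620) by -3.26. Hydroperoxide lyase (MSTRG.6746) differed by -3.92, the gene like the ultraviolet-B receptor (MSTRG.17436) by 3.16 and expansin-A1 (MSTRG.20456) by 7.13. The 3 libraries of a group are too few for a test of outlying libraries.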

How the results depend on the processing

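Of the counts of called genes, 1 moved by more than 1.5 times: limma on log2(FPKM + 1) called 3124 genes at least 2-fold higher, against 4887 in edgeR. Leaving out 1 library without melatonin at 35 °C or 40 °C in turn gave 8281 to 8539 genes higher and 9053 to 9224 lower. At least 2-fold, 4821 to 4955 were higher and 5485 to 5624 lower. The step differed with melatonin in 12011 to 12289 genes in these fits. In fits without 1 melatonin library in turn it differed in 11851 to 12012. Rubisco activase 1 (MSTRG.9620) changed sign with DESeq2, to 0.066 on the log2 scale. In edgeR, median-of-ratios scaling alone, which DESeq2 also uses, gave 0.066, and no filter on counts gave 0.012, neither called. The share of rises among called genes was 47.4% in edgeR, 50.1% with median-of-ratios scaling and 42.0% with limma on log2(FPKM + 0.1), whose median change over all genes was -0.20. Taken over all genes, same-numbered libraries did not deviate together (correlations of -0.030, -0.002 and -0.015). A correlation over all genes cannot exclude a deviation shared by some of them. With the replicate block, 8455 genes were higher and 9410 lower, 4797 and 5612 at least 2-fold, and 12334 differed with melatonin. Over all pairings of a named gene and an alternative, the call was kept in 1805, and the direction too where the gene was called. Direction was not compared where neither fit called the gene. A call was gained in 19 and lost in 8. Of the gene lists named or plotted with a median, the proteasome changed its sign, from 0.08 to -0.06 with limma on log2(FPKM + 1) and -0.07 on log2(FPKM + 0.1), and no other list did under the alternatives run. Over all pairings, 106 of these medians moved by more than their SD between libraries and 323 did not. Class III peroxidases had 0.08 with limma on log2(FPKM + 1) and 0.81 with only the compared groups fitted, HSP100/ClpB had 1.01 without 35 °C replicate 3, and fatty acid synthesis and desaturation had -0.60 without 40 °C replicate 3.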

Other observations

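One block of related genes on chromosome 3 was lower at 40 °C. It was picked after its values were seen and carries no test. Among pathways of the authors' KEGG annotation (a public catalogue of metabolic pathways), the entry for anthocyanin biosynthesis held 22 tested genes, of which 18 fell and 1 rose at least 2-fold, against 21.8% and 18.7% of all genes. Its members do not span the pigment pathway: 21 of the 22 are annotated as glycosyltransferases or glucosyltransferases, enzymes that attach sugars to pigments and other small molecules. They are also part of one neighbourhood, since 17 lie on chromosome 3 between 31528031 and 31713071, and 15 of these 17 fell at least 2-fold.

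Most of the block was scarcely transcribed already, with a mean under 1 FPKM at 35 °C in 12 of the 17, and 6 had 0 counts in all 40 °C libraries. The most abundant, a glycosyltransferase (MSTRG.5615), measured 71.5, 68.8 and 71.4 FPKM at 35 °C and 16.8, 18.8 and 20.6 FPKM at 40 °C, a log2 fold change of -1.76 ± 0.07 (SE; edgeR, adjusted p = 1.4e-11). With melatonin its log2 fold change for the same step was -1.66. Neighbouring copies of one family can share reads, so the split of counts between them is uncertain.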
